A study of Mus musculus with 6 samples.

Results

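T cell receptor signalling genes encode the receptor chains, kinases, adaptors, enzymes and brakes that carry a signal from a bound antigen to the nucleus. A list of 43 such genes was followed in naive CD4 T cells with and without Trim28. A gene was represented by the transcript row with the highest total among the rows that carry its symbol. Of the 43 genes, 40 had a row, among 16911 genes named in a table of 19048 rows. Vav1, Nfatc1 and Nfatc2 matched no row and are not analysed here. All 40 passed the filter of a mean of at least 10 normalized reads.

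The cells were enriched with beads and sorted from mice on the C57BL/6 background. Wild-type littermates gave 3 RNA-seq libraries (WT1 to WT3) and Trim28 KO mice gave 3 (KO1 to KO3). A naive CD4 T cell is a helper cell before its first contact with antigen, and no treatment is named for these libraries. Every library title carries the label D0. Trim28 encodes a corepressor that DNA-binding zinc finger proteins recruit to silence chromatin. The age of the mice, how and in which cells Trim28 was deleted, and whether libraries came from separate or pooled mice were not stated in the labels, so p-values measure only the spread between these libraries.

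When the receptor meets its antigen, Lck phosphorylates the CD3 and zeta chains, which then dock the kinase Zap70. Zap70 phosphorylates the scaffolds Lat and Lcp2, on which Plcg1 and exchange factors assemble to start calcium, Ras and NF-kappaB signalling. In naive cells phosphatases, the kinase Csk, ubiquitin ligases and adaptor-like brakes hold this machinery in check.

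Depth ran from 22005759 to 44372701 reads per library, and the 40 genes took between 1.075% and 1.143% of the normalized counts in each library. Trim28 itself fell, from 8429, 8287 and 9428 normalized reads (WT1 to WT3) to 737.5, 628.1 and 1247 (KO1 to KO3) (log2 fold change -3.38, SE 0.22, limma adjusted p 0.000135). KO3 held more transcripts of other cell types than the remaining libraries. The summed level of 14 B cell markers was 7443 in KO3 against 505.1 to 1326 across wild-type and 684.7 and 582.9 for KO1 and KO2, and 13 of the 14 were highest in KO3. The sum of 11 markers of natural killer cells and innate lymphocytes was 6361 in KO3 and 2250 to 3067 elsewhere, and 10 of the 11 were highest there. The sum of 6 CD8 T cell markers was 5472 in KO3 and 2027 to 3311 elsewhere, but only 2 of the 6 were highest there. Cd8b1 alone stood at 4206 in KO3, while Runx3, at 1017, was lowest there. The sum of 12 effector and memory markers was 15135 in KO3 and 7711 to 8441 elsewhere, with 9 of the 12 highest in KO3. The sum of 13 myeloid and dendritic cell markers was 1793 in KO3, 217.9 to 838 across wild-type, and 347 and 224.4 for KO1 and KO2. Of these 13, 7 were highest in KO3, and S100a8 was highest in WT1 at 311. Markers of CD4 T cells (9 genes) summed to 99363 in KO3 and to between 119535 and 140197 in the other 5, with KO3 the lowest. Of these genes only Cd4, Zbtb7b and Il7r were lowest in KO3. Il7r was at 36872, 42275 and 32322 in WT1 to WT3 and at 25357, 30019 and 19013 in KO1 to KO3. Cd4 and Cd3e, which are part of this sum, are also among the 40 genes. The 8 regulatory T cell markers summed to 2727 to 3095 across wild-type and 7970 to 9995 across knockout libraries, groups that did not overlap. Most of that gap was Nrp1, at 377.9, 397.2 and 333.7 against 4555, 4794 and 4137. Ikzf4, Il2ra, Ctla4 and Tnfrsf18 were also higher in every knockout library than in any wild-type library, while Ikzf2, Tnfrsf4 and Foxp3 overlapped. The row of Foxp3, which defines these cells, was between 2.39 and 11.4 in every library, and a row may stand for part of the reads of a gene. The part of regulatory T cells in these sums was not tested. Erythroid and platelet markers (6 genes) summed to at most 127.5, and the 6 thymocyte markers to 2229 to 2700. Nearly all of the latter came from Cd1d1 and Satb1, while Ptcra and Rag2 were at 2.91 or below and Rag1 was highest in KO3 at 25.5. Transcripts of 4 Y-linked genes summed to 13625 in WT1 and 12677 in KO2 and to at most 2.391 in the others, while Xist, which is transcribed from the inactive X chromosome, was between 12289 and 28062 in every library, WT1 and KO2 included.

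None of the 40 genes was called between Trim28 KO and wild-type. In limma, with p adjusted over all 13022 tested rows, 0 of the 40 had an adjusted p under 0.05, against 1.51% of all tested rows (1.19% higher and 0.315% lower in the knockout). An unadjusted p under 0.05 was reached by 11 of the 40 (27.5%), against 12.7% of tested rows. Of the 11, 4 were higher in the knockout (10% of the 40, against 6.84% of rows) and 7 lower (17.5%, against 5.84%). With voom weights on the recovered reads 0 of the 40 were called too. The fold changes (knockout minus wild-type, log2 of the normalized read count plus 1) ran from -0.44 for Trat1 to 0.61 for Cd3e, with a median of -0.03, beside 0.0019 over all tested rows. For 24 of the 40, the 95% interval of the fold change lay within 0.5 on either side of 0, and for 39 it lay within 1. Cd3e was the exception. A missed threshold does not show that a gene was equal in both groups, and these intervals give the size of difference that these libraries leave possible.

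**Figure D1:**
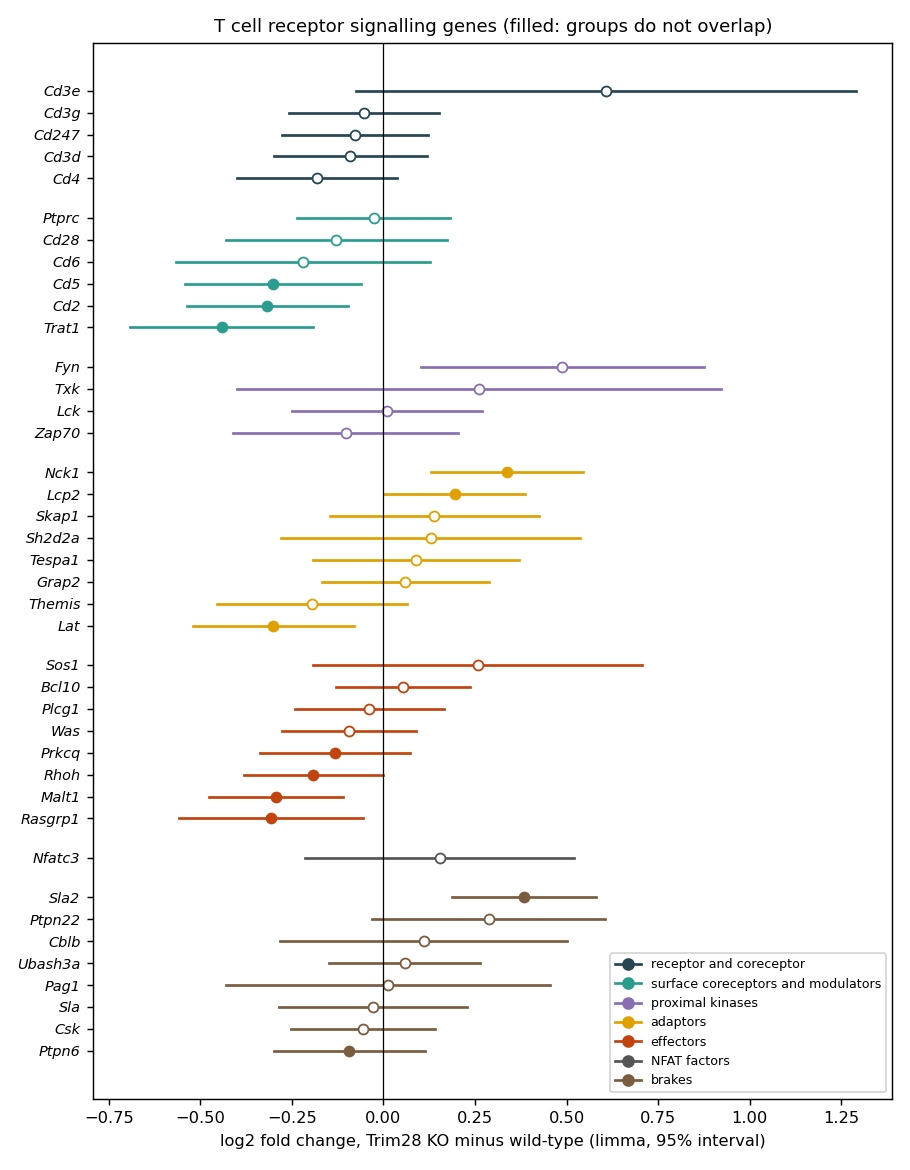
Fold change of each of the 40 genes (horizontal axis, log2 scale, limma) with its 95% interval, 3 libraries per group, coloured by role. Filled points mark the 12 genes whose groups do not overlap, and the widest interval, from -0.08 to 1.29, is that of Cd3e.

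Knockout and wild-type libraries did not overlap in 12 of the 40 genes (30%), against 18.8% of all tested rows. The knockout was lower in 9 of them (22.5% of the 40, against 9.58% of tested rows) and higher in 3 (7.5%, against 9.21%). With libraries scaled by their total reads in place of the authors' size factors the split was 3 lower and 7 higher. These were 7.5% and 17.5% of the 40, against 5.24% and 13.5% of rows, so the balance of directions depended on the scaling. The 10 genes with the smallest unadjusted p kept their direction under each of the 3 other scalings, which their size largely fixed in advance. Total read scaling moved the median log2 fold change of all rows only from 0.0019 to 0.0573. The value nearest to 0 among the 10 genes was -0.19, for Rhoh. For every one of the 12 the exact two-sided permutation test over libraries gave p = 0.1, the smallest that 3 against 3 allow. KO3 was the lowest of the knockout libraries in 25 of the 40 genes (62.5%), and in 36.6% of all tested rows. Without KO3, the groups lay apart in 11 genes with the knockout higher (27.5% of the 40) and 10 with it lower (25%). The shares of tested rows were 19.9% and 19.0%. The part that other cell types in KO3 have in these values was not tested. In bulk RNA, fewer cells of a type and less RNA per cell cannot be told apart.

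Levels per kilobase of transcript differed widely between the genes, and this spread went with how many transcripts RefSeq lists for a gene. Counts were divided by the length of the matched GENCODE transcript to compare genes, as normalized reads per kilobase, averaged over the 6 libraries. Cd3g was highest at 22469 per kilobase, followed by the scaffold Lat at 17096, Cd2 at 13752, Cd3d at 11120 and Cd4 at 10150. At the low end were the Tec family kinase Txk at 23.49, the Csk anchor Pag1 at 25.06, the adaptor Sh2d2a at 49.29 and the Src family kinase Fyn at 72.36. The 19 genes with 1 curated RefSeq transcript had a median of 4158 per kilobase, and the 21 with several had a median of 433.5. Over all genes with a mean of at least 10, the medians were 336.6 for 6800 genes with 1 curated transcript and 112.4 for 4989 with several. The sources used here do not say how reads shared by several transcripts were counted, so a row of such a gene may stand for part of its reads, and the low levels of Lck, Zap70, Fyn and Txk are values of rows, not of genes. Ratios between groups are within a row and do not use its length.

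**Figure D2:**
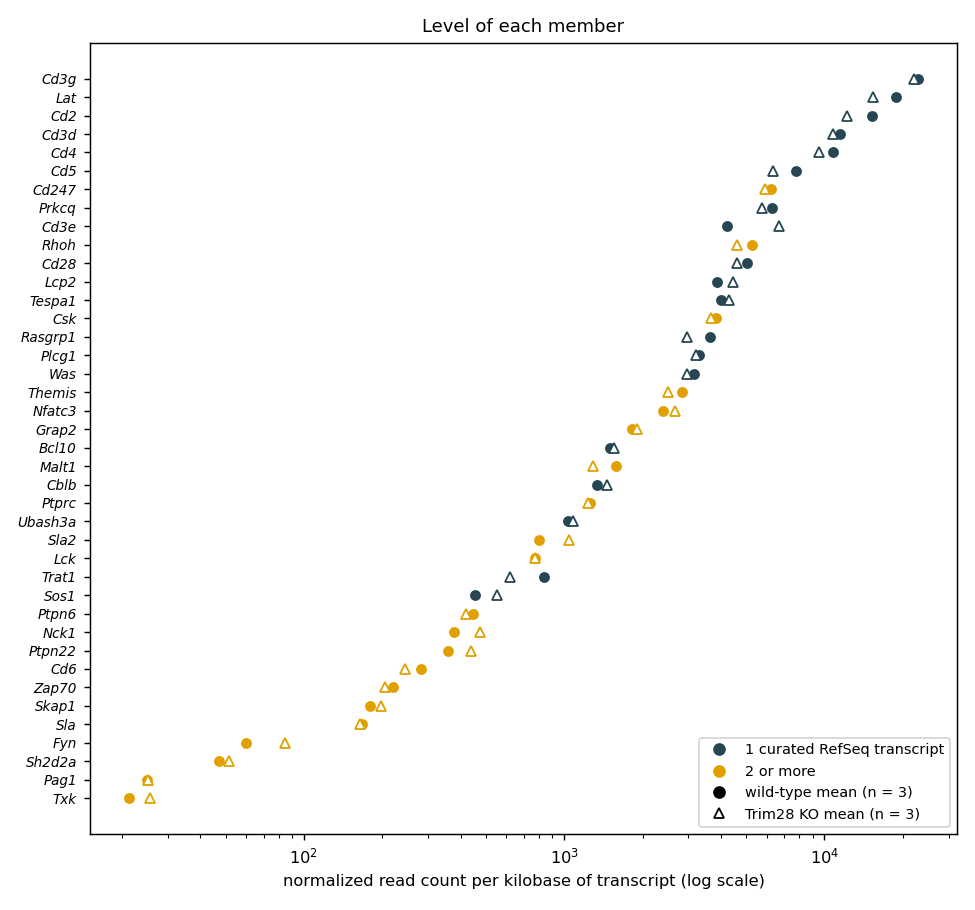
Mean normalized read count per kilobase of transcript (log scale) for the 40 genes in wild-type (circles) and Trim28 KO (triangles) libraries, n = 3 each, coloured by the number of curated RefSeq transcripts. Every gene whose mean over all 6 libraries is below 502.1 has several transcripts, and these means run from 23.49 for Txk to 22469 for Cd3g.

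The receptor chains were described first. Cd3d, Cd3g and Cd3e lie in 1 region of chromosome 9 and encode the chains that pair around the antigen receptor, and Cd247 on chromosome 1 encodes the zeta chain. The annotated start of Cd3d is 1355 bases from that of Cd3g, on the opposite strand, and 27825 bases from that of Cd3e. The 250 bases before each start are shown because Cd3e varied 2.71-fold between libraries while its neighbours Cd3d and Cd3g varied 1.20-fold and 1.17-fold. They come from RefSeq, build GRCm38.p6, and run 5′ to 3′ on the strand of the gene, at chr9:44981536-44981785 (plus strand) for Cd3d, chr9:44980432-44980681 (minus) for Cd3g and chr9:45009612-45009861 (minus) for Cd3e. Capitals mark GGAA on either strand, the core of motifs bound by Ets factors.
Cd3d: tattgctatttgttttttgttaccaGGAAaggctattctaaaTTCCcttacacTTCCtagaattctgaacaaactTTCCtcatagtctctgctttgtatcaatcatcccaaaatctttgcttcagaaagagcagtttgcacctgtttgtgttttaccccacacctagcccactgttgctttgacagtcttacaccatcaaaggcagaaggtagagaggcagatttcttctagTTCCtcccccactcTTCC
Cd3g: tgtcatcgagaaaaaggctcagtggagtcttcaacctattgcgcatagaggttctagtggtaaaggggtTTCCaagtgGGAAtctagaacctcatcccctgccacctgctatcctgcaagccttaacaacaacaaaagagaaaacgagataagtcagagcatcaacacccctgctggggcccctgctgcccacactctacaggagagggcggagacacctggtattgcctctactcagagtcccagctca
Cd3e: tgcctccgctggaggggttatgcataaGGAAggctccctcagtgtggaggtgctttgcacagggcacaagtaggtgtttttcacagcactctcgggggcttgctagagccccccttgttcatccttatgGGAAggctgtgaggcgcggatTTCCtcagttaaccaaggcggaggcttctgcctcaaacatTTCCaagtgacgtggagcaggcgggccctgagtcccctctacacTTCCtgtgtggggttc
GGAA on either strand occurred 6 times in the Cd3d window, 2 times in that of Cd3g and 5 times in that of Cd3e. A match was present in 93.4% of 32851 promoter windows of that length, with a median of 3 per window. The E-box CANNTG, bound by helix-loop-helix factors, occurred 1, 3 and 1 times and was present in 66.2% of windows, with a median of 1. Neither the RUNX motif TGTGGT (14% of windows) nor TATAAA (12.4%) was in any of the 3. Base composition differed, at 41.2%, 51.6% and 57.2% G and C for Cd3d, Cd3g and Cd3e. Matches are a description of these letters and show no binding.

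Cd3e was the gene of the 40 that varied most between libraries, by 2.71-fold from the lowest to the highest, where the median of the 40 was 1.33. It was at 5077, 8097 and 5369 normalized reads in WT1, WT2 and WT3, and at 13743, 9911 and 5730 in KO1, KO2 and KO3. KO1 and KO2 stood above all wild-type libraries, while KO3 lay among them, so the groups overlapped. The log2 fold change was 0.61 (SE 0.30, 95% interval -0.08 to 1.29, n = 3 per group), with a limma adjusted p of 0.461. Without KO3 it was 0.95, with a limma adjusted p of 0.0285, where 4.30% of all tested rows were called. Without KO1 the fold change was 0.32. Without WT1, WT2, WT3, KO1 or KO2 in turn the adjusted p lay between 0.399 and 0.863.

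The neighbours of Cd3e did not share this spread. Cd3d was at 18911, 18917 and 17765 in WT1 to WT3 against 15774, 18134 and 18382 in KO1 to KO3. Cd3g was at 24550, 22928 and 22731 against 20961, 24208 and 22536. Both ranges overlapped, with intervals of -0.30 to 0.12 for Cd3d and -0.26 to 0.15 for Cd3g. Cd247 was at 9340, 10308 and 10921 against 9886, 9440 and 9571, also overlapping. Cd4, the coreceptor that binds class II molecules of the major histocompatibility complex and brings Lck, had the highest normalized count of all 40 rows, at 33669, 31880 and 34970 against 32564, 28199 and 27990. Its fold change was -0.18 (SE 0.10, interval -0.40 to 0.04), with KO2 and KO3 below and KO1 within the wild-type range.

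**Figure D3:**
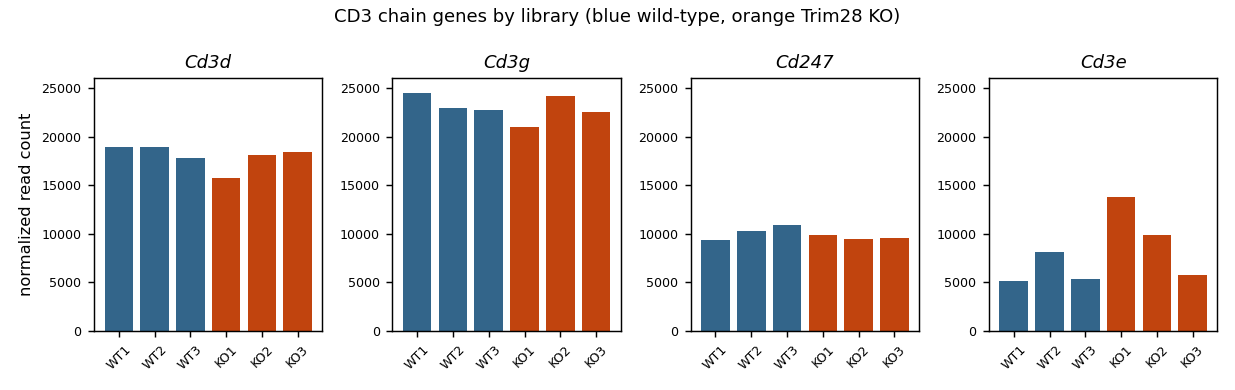
Normalized read counts of Cd3d, Cd3g, Cd247 and Cd3e in each library, on 1 linear scale from 0, wild-type in blue and Trim28 KO in orange. Cd3e ranges from 5077 to 13743, while Cd3d stays between 15774 and 18917.

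The order of libraries seen in Cd3e, with WT2 highest of its group and KO1 over KO2 over KO3, was looked for in the other genes after the values were seen. Among the 39 genes other than Cd3e it held in 6, which were Cblb, Pag1, Csk, Sos1, Nfatc3 and Rasgrp1 (15.4%), and it held in 12% of all tested rows. Sos1, an exchange factor for Ras, was at 3460, 4617 and 3416 against 5476, 5122 and 3321. Nfatc3, a transcription factor that calcineurin moves into the nucleus, was at 12762, 17147 and 13014 against 18659, 16321 and 12856. KO3 was the lowest of all 6 libraries for Sos1 and the lowest knockout library for Nfatc3, and their fold changes were 0.26 (SE 0.20) and 0.15 (SE 0.16).

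Of the 6 surface modulators, 3 had knockout values below every wild-type value, as did 9.58% of all tested rows. Trat1, a transmembrane adaptor that associates with the receptor (chromosome 16, 48730774 to 48810547), was at 4001, 4091 and 3597 in WT1 to WT3 against 2929, 3199 and 2504 in KO1 to KO3. The groups did not overlap, with a log2 fold change of -0.44 (SE 0.11, interval -0.69 to -0.19) and a limma adjusted p of 0.12. KO3 was the lowest, and the value without KO3 was -0.35. Cd2, an adhesion receptor that strengthens contact with other cells, was at 18224, 16543 and 17965 against 12779, 14249 and 15378. Here KO3 was the knockout library nearest to the wild-type range. Cd5, which tempers receptor signalling, was at 15608, 15363 and 17189 against 13146, 11525 and 14539. The log2 fold changes were -0.32 (SE 0.10) for Cd2 and -0.30 (SE 0.11) for Cd5.

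The remaining surface genes overlapped between groups. Cd6, a relative of Cd5, was at 871.5, 793.4 and 892.1 against 665.4, 632.4 and 926.1, with KO3 the highest of all. Cd28, the costimulatory receptor, had the highest count of the class, at 21771, 24092 and 19782 against 20982, 22775 and 16616. Ptprc, the CD45 phosphatase that keeps Lck ready to act, had a fold change of -0.03 (interval -0.24 to 0.18).

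None of the 4 proximal kinases had groups that lay apart. Fyn was at 191, 198.1 and 247.2 against 321.3, 327.9 and 246.3, so that KO1 and KO2 were above every wild-type library and KO3 just below WT3. Its log2 fold change was 0.49 (SE 0.17, interval 0.10 to 0.87), with a limma adjusted p of 0.27, and its row held as few as 137 reads in a library. Lck, which starts the cascade, was at 1711, 1384 and 1781 against 1591, 1577 and 1715, a fold change of 0.01 (interval -0.25 to 0.27). A further row of Lck was at group means of 372 and 375.4. Zap70 was at group means of 491.4 ± 48.5 and 458.3 ± 57.2 (SD, n = 3 per group), and its 3 other rows held means between 27.4 and 78.5. Txk, at 49.83 and 60.29, had an interval of -0.40 to 0.92, the second widest after Cd3e.

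The adaptors went in both directions. Nck1, which links phosphorylated Lcp2 to the actin skeleton (chromosome 9, 100494302 to 100546134), was at 1583, 1746 and 1718 in WT1 to WT3 against 2191, 2206 and 1979 in KO1 to KO3, apart and higher. Its log2 fold change was 0.34 (SE 0.09, interval 0.13 to 0.54), with a limma adjusted p of 0.156. Lcp2, the SLP-76 scaffold, was at 13516, 14425 and 14444 against 17254, 15925 and 15356, also apart, with a fold change of 0.19 (SE 0.08). Lat, its partner scaffold in the membrane, was at 23984, 20978 and 25017 against 18807, 17969 and 19926, apart and lower. Its fold change was -0.30 (SE 0.10, interval -0.52 to -0.08). Grap2, the Gads adaptor that joins Lat to Lcp2, was at group means of 2356 and 2460, with overlapping groups.

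The other adaptors overlapped as well. Themis, which sets signal strength in developing T cells, was at 14710, 15291 and 13395 against 12768, 14347 and 10955, with KO3 lowest. Tespa1, another gene of thymocyte development, was at group means of 6654 and 7122, Skap1, which couples the receptor to integrins, at 269.4 and 297, and Sh2d2a at 85.15 and 92.98. The intervals of these 4 genes all included 0, and the farthest bound was 0.54, for Sh2d2a.

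Among the 8 effectors with a row, 4 lay apart and lower in the knockout (9.58% of all tested rows) and 0 apart and higher (9.21%). Malt1, the protease of the complex that turns on NF-kappaB, was at 8015, 8703 and 8683 against 6963, 7117 and 6632. The spread within each group was small, and the log2 fold change was -0.29 (SE 0.08, interval -0.48 to -0.11, limma adjusted p 0.161). Bcl10, the adaptor that holds Malt1 in that complex, varied least of the 40 genes, by 1.11-fold over all libraries, at 3009, 2797 and 2954 against 2944, 3043 and 3100. Rasgrp1, the exchange factor that switches on Ras after diacylglycerol is made, was at 18072, 20514 and 18648 against 17642, 14969 and 13824 (fold change -0.31, SE 0.11). Its gap between groups was narrow, since KO1 came close to WT1. Prkcq, the protein kinase C of the synapse, had the highest count of the class, at 23256, 22213 and 22150 against 21573, 21478 and 18739. Its gap rested on small differences for KO1 and KO2, and the interval of -0.34 to 0.07 included 0. Rhoh, a GTPase that helps Zap70 reach the receptor, was at 12299, 11707 and 11792 against 10540, 11072 and 9763 (fold change -0.19, SE 0.08).

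Plcg1, the phospholipase that makes the second messengers, overlapped between groups, at 14291, 14003 and 15506 against 15358, 13503 and 13808. Was, an activator of actin assembly, did too, at group means of 6660 ± 318 and 6240 ± 191.6 (SD, n = 3 per group).

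Of the 8 brakes, Sla2 had the smallest p of the 40 genes. It encodes an adaptor that lowers the level of receptor at the surface together with the ligase Cbl (chromosome 2, 156874151 to 156887250). It was at 2312, 2556 and 2289 in WT1 to WT3 against 3154, 3193 and 2983 in KO1 to KO3. All 3 knockout libraries, KO3 included, lay above all wild-type libraries. The knockout mean was 30.3% higher, with a log2 fold change of 0.38 (SE 0.09, interval 0.19 to 0.58) and a limma adjusted p of 0.0865. It was called when libraries were scaled by their total reads (adjusted p 0.0415), where 1.29% of rows rose, and without KO3 (adjusted p 0.0419). Over the other settings its adjusted p ran from 0.0685 to 0.393. Sla, its relative with a like role, was at 496.4, 494.1 and 491.3 against 437, 494 and 525.2, overlapping, with an interval of -0.29 to 0.23.

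The phosphatases and ligases showed smaller differences. Ptpn6, the SHP-1 phosphatase, lay apart and lower, at 995.6, 965.1 and 1018 against 948.2, 950.1 and 895.1, by a log2 fold change of only -0.09 (SE 0.09). Ptpn22, a phosphatase that acts on Lck and Zap70, was at 966.3, 1129 and 853.5 against 1142, 1387 and 1070, overlapping, and its second row, a non-coding transcript, was at group means of 418.4 and 568.2. Csk, the kinase that turns Lck off, had the highest count of the class, at 10112, 10771 and 10642 against 10945, 9842 and 9560. Pag1, which anchors Csk, was at group means of 205.7 and 208.2. Ubash3a, a phosphatase-like suppressor, was at 7895 ± 86.1 and 8241 ± 755.4 (SD, n = 3 per group), and its knockout values were the more spread. Cblb, a ubiquitin ligase that raises the threshold for activation, was at 8263, 10171 and 8140 against 11999, 9694 and 7396, with KO1 the highest and KO3 the lowest.

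**Figure D4:**
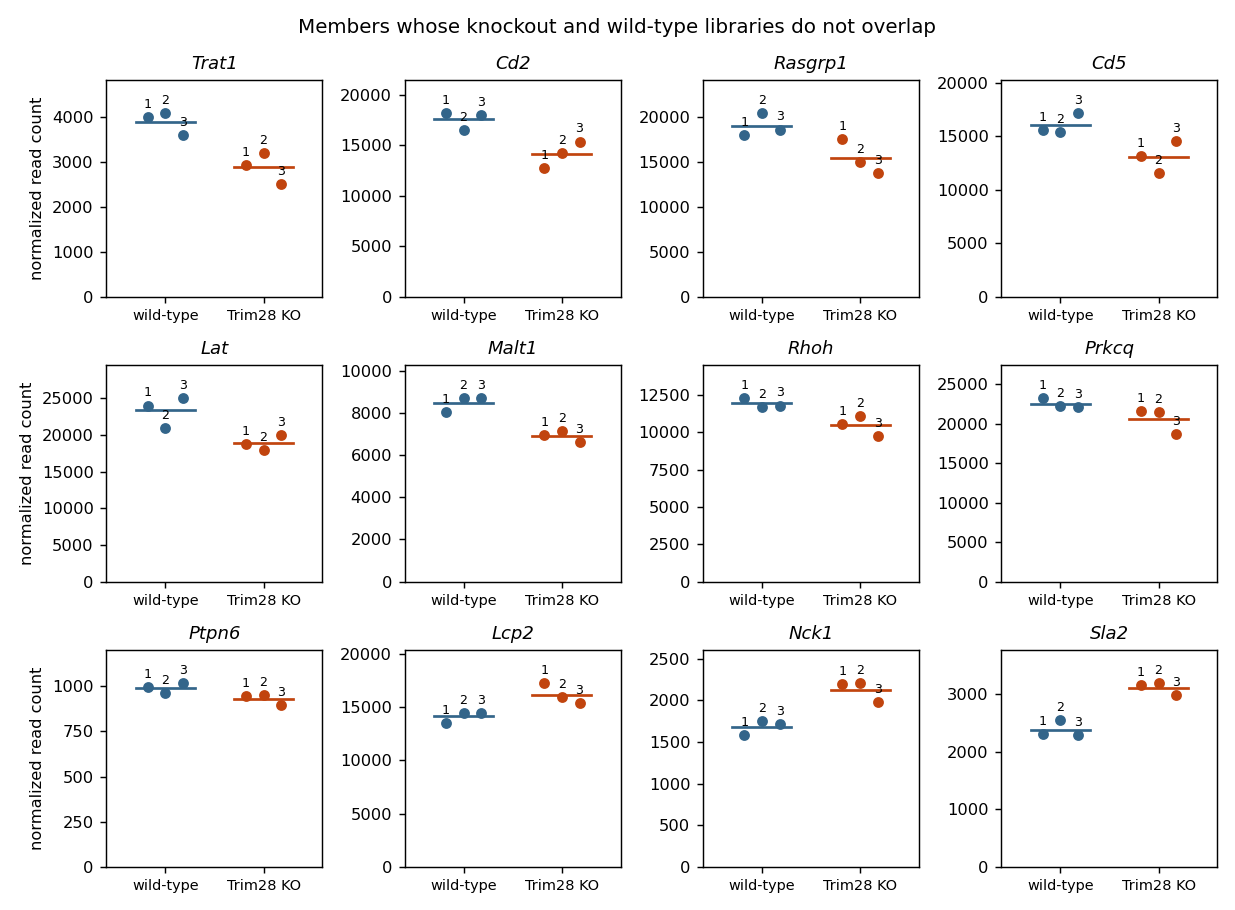
Normalized read counts, on axes from 0, of the 12 genes whose wild-type (blue) and Trim28 KO (orange) libraries do not overlap. Digits are replicate numbers and lines are means of 3 libraries. The log2 fold change is farthest from 0 for Trat1 (-0.44) and Sla2 (0.38) and nearest to 0 for Ptpn6 (-0.09) and Prkcq (-0.13).

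Other genes of the pathway were taken from 6 more lists, with 120 genes tested in all. By limma 1 of them rose, 0 fell and 119 did not pass, while 28 reached an unadjusted p under 0.05. Over all tested rows the shares were 1.51% and 12.7%. Among 26 other proximal components, 20 genes of the calcium and calcineurin arm, 22 of the Ras and MAP kinase arm, 11 between the receptor and the NF-kappaB kinase, and 20 other brakes, limma called 0. Those below 0.05 before adjustment numbered 2, 4, 6, 1 and 4, beside the same 12.7% of all rows. Their median log2 fold changes were 0.06, 0.03, 0.05, 0.03 and 0.09.

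The gene with the smallest p is given with its values for 4 of these 5 lists. Wipf1, which stabilises the protein of Was, was at 154.8, 223.4 and 216.3 against 400.5, 295.8 and 271 (log2 fold change 0.70, SE 0.20). Dusp6, a phosphatase that turns off the kinase Erk, was at 2997, 2324 and 3342 against 1621, 1832 and 2266 (-0.60, SE 0.16). The groups of both lay apart, as in 18.8% of all tested rows, and neither passed, with limma adjusted p of 0.18 and 0.16. Tab2, an adaptor of the NF-kappaB arm, was at 6442, 6801 and 6324 against 9282, 8212 and 6817 (0.30, SE 0.12). Tagap, a GTPase-activating protein placed among the brakes, was at 9425, 10040 and 9379 against 7645, 7521 and 8191 (-0.30, SE 0.08). Without KO3, Dusp6 and Tab2 were called (limma adjusted p 0.0254 and 0.0382), in a fit that called 4.30% of all rows.

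The sixth list held genes that receptor stimulation induces. Of 21 tested by limma, Il2ra rose, 0 fell and 20 did not pass. Before adjustment 11 of the 21 were below 0.05, 7 of the 21 with the knockout higher (6.84% of all rows) and 4 of the 21 with it lower (5.84%). Their fold changes had a median of 0.37 on the log2 scale, which was 0.06 when KO3 was left out, an alternative added after seeing the data. KO3 was the highest of the 6 libraries in 12 of the 21 (57.1%), against 19.3% of all tested rows. Single genes ran from -1.31 to 2.31. The highest was Bhlhe40, a transcription factor, at 26.49, 16.51 and 57.93 against 102.8, 80.15 and 411.3. Xcl1, a chemokine that natural killer and CD8 T cells also make, was at 25.1, 26.41 and 40.94 against 12.14, 27.69 and 223.2. Both were picked after their values were seen. In KO3 the sums of the effector and memory, innate lymphocyte and CD8 markers were 15135, 6361 and 5472, above every other library, and their part in the values of these induced genes was not tested. Il2ra, which makes the interleukin-2 receptor bind with high affinity, was at 171.5, 150.8 and 187.7 against 358.4, 373.1 and 714.1, with KO3 the highest (log2 fold change 1.43, SE 0.26, limma adjusted p 0.0326). It is also a marker of regulatory T cells and stands in that marker list, whose part in this result was not tested. It was not called in 7 settings, among them voom weights, where its adjusted p was 0.0892. Over all alternatives its adjusted p ran from 0.00492 (without KO3) to 0.148 (without WT1).

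Further genes of that list were chosen after their values were seen. Egr2, a transcription factor that restrains T cells, was at 782.3, 763.7 and 811.8 against 1085, 948.7 and 1047. Rel, an NF-kappaB subunit, was at 764.1, 912.2 and 940 against 1650, 1220 and 1070. For both, every knockout library lay above every wild-type library, as in 6 of the 21 tested genes of the list and 9.21% of all tested rows. Cd69, an early surface marker of stimulation, was at 15486, 12001 and 13041 against 8642, 10483 and 10275. Fosb, a subunit of the factor AP-1, was at 2082, 1541 and 2397 against 529.8, 686.4 and 1396. For these, every knockout library lay below every wild-type library, as in 2 of the 21 and 9.58% of all tested rows. The limma adjusted p of the 4 genes lay between 0.119 and 0.178, and none passed. Without KO3, Fosb and Rel were called (limma adjusted p 0.000504 and 0.0305), where 4.30% of all rows were. With the replicate number as a block, Fosb was called as well (adjusted p 0.0402).

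**Figure D5:**
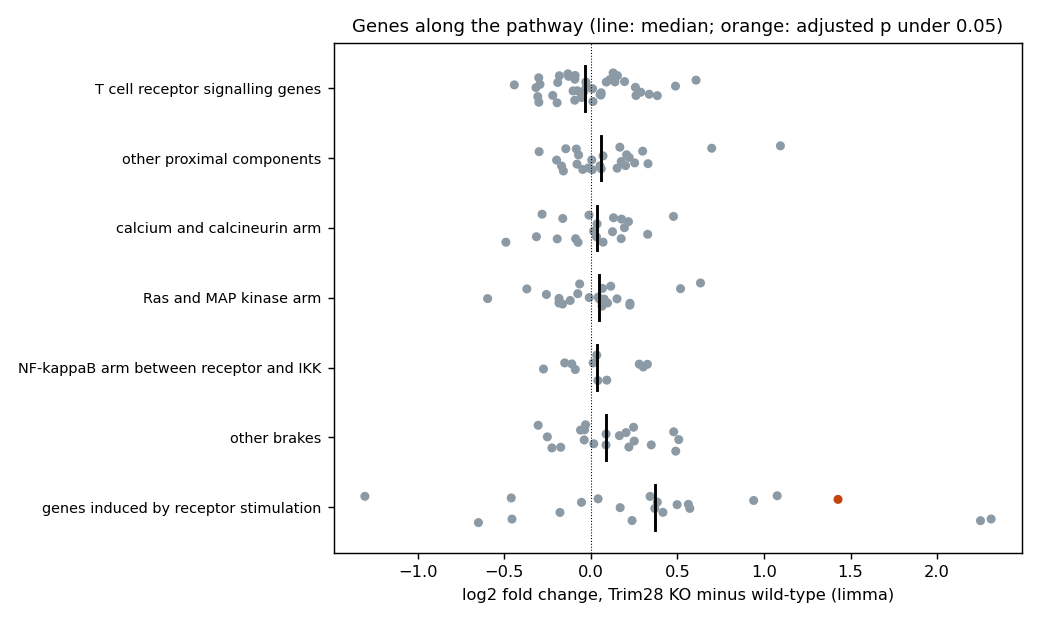
Log2 fold change (horizontal axis, Trim28 KO minus wild-type) of each tested gene in 7 lists along the pathway, with list medians as vertical lines and genes with a limma adjusted p under 0.05 in orange. The medians lie between -0.03 and 0.09 in the first 6 lists and at 0.37 in the genes induced by stimulation, where Il2ra is the called gene.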

How the data were processed

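RNA-seq values of 6 libraries were read from 1 table. The authors deposited values on a log10 scale, as the values themselves show: 10 to the value minus 1 gave whole multiples of 1 step per library for 100% of values, within 0.01 of a whole number. Undoing the log thus returned reads scaled by 1 factor per library, and the steps matched the inverse of size factors recomputed by median of ratios. The tools named per the submitters' processing notes were HTSeq, STAR and DESeq2, with the build mm10 and no versions or roles. The strand setting and the assignment of reads shared by several transcripts are not given in the sources used here. RefSeq (GRCm38.p6) named 18807 rows and GENCODE M21 a further 108, and 133 stayed unnamed.

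Groups were compared with limma 3.58.1 (R 4.3.3) on log2 of the normalized count plus 1, with the empirical Bayes trend, all 6 libraries and no covariate. It covered the 13022 rows whose mean reached 10, and Benjamini-Hochberg adjustment over all of them, two-sided. A gene was called at an adjusted p under 0.05. The fit was tested on simulated data with the same spread setting for all genes and changes larger than any seen in the 43 genes. That test does not cover differences of the size seen here. Single genes also had an exact permutation test. Other settings were the pseudocount, the filter, 3 scalings, the variance model, voom weights, a replicate block, a Y-linked covariate, rows summed per gene and leaving out each library. The 43 genes, the lists and the settings were chosen with earlier results of these data known. Values by library are given for genes with the smallest p or the highest count in their role, genes whose groups lie apart, and the called gene or the gene with the smallest p of each other list, and for some further genes. The gene of 1 list is not reported here. Of the 43 genes, 32 had a promoter entry, and those of 3 are shown.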

Additional observations from a re-analysis of the deposited data

How the results depend on the processing

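Of the 40 signalling genes, 1 (Sla2) rose when libraries were scaled by total reads, and 0 were called in the other settings that kept all 6 libraries. Leaving out 1 library gave 0 to 2 rises among them, the 2 without KO3, and 0 falls in each case. The fit without KO3 called 4.30% of all rows, and those without another library 0.865% to 1.06%. Over all rows, falls numbered 27 with total read scaling and 17 without the mean-variance trend, and leaving out 1 library gave 94 to 354 rises and 14 to 199 falls, the highest of each without KO3. Among the other pathway genes the count was 0 without the trend, with voom weights and with the Y-linked covariate. Those fits called 0.952%, 1.23% and 1.30% of all rows. With 1 library left out the count was 0 to 12, with 12 without KO3, where 4.30% of all rows were called. Genes whose groups lay apart numbered 7 higher and 3 lower with total read scaling (13.5% and 5.24% of all rows), and 3 to 11 higher and 10 to 13 lower with 1 library left out (11.6% to 19.9% and 12.1% to 19.0% of all rows). Some log2 fold changes near 0 changed sign. Total read scaling moves every gene by nearly the same amount, and the median of all rows went from 0.0019 to 0.0573, which turned Cd3g (0.00174), Ptprc (0.0296), Plcg1 (0.0171) and Sla (0.0265) positive. With quantile normalization Lck (-0.000809) and Pag1 (-0.0667) turned, and the cause was not tested. With 1 library left out the values ran from -0.0575 to 0.291 for Cblb, -0.224 to 0.00325 for Cd28, -0.0206 to 0.103 for Grap2, -0.102 to 0.0799 for Lck, -0.139 to 0.145 for Pag1, -0.0951 to 0.00549 for Plcg1, -0.0889 to 0.0345 for Ptprc, -0.0881 to 0.0444 for Sla, -0.00191 to 0.217 for Tespa1 and -0.00411 to 0.129 for Ubash3a. Deviations of same-numbered libraries correlated at -0.31, 0.26 and 0.36, and those of differently numbered libraries between -0.44 and 0.37. Deviations from a group mean sum to 0, so these correlations cannot show whether the numbers pair the samples. A replicate block gave 143 rises and 32 falls over all rows (1.34% together), 0 among the 40 genes and 4 among the other pathway genes. The counts of genes lying apart under other scalings, with rows summed and with a library left out were chosen after seeing the data.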
